A study of Brassica carinata and Brassica napus and Brassica carinata x Brassica napus with 3 samples.

Results

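Cytochromes P450 were followed in floral buds of an interspecific Brassica hybrid, of B. carinata and of B. napus, with 1 RNA-seq library per group. The members were the assembled sequences whose Swiss-Prot annotation names a cytochrome P450, apart from CYP703A2, CYP83A1 and CYP83B1, and whose Swiss-Prot score reached at least 0.6 of the score of the best hit in Nr, the NCBI protein database. Of 498 sequences with such a name, 7 were left out by name, 105 by the score and 2 because they had no Nr score, which left 384 of the 157663 sequences in the deposited table. They fell under 69 Swiss-Prot entries of 23 numbered families, and 59 of the entries are Arabidopsis thaliana proteins and 10 are proteins of other plants. An entry is written CYP followed by its number, and its level is the RPKM (reads per kilobase of sequence and per 1000000 reads of the library) summed over its sequences.

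The hybrid is labelled as a cross between B. carinata and B. napus, while its labels state neither the direction of the cross nor the generation. The B. carinata plants were cultivar W29 and the B. napus plants cultivar Zhongshuang 11. All buds were labelled as taken when flowering began, and the labels do not say how many plants were pooled. Both parents are natural allopolyploids that share the C genome, so 1 gene is expected in several near-identical copies, and the assembly holds copies as separate sequences. With 1 library per group there was no spread between samples and no test. Ratios of RPM, the reads per 1000000 reads of a library, have 95% exact binomial intervals that cover counting error only, and plant, bud stage and library cannot be told apart. In whole buds, fewer cells of a type and less RNA per cell cannot be told apart.

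Cytochromes P450 are heme enzymes that insert 1 oxygen atom of O2 into a substrate, with electrons that most of them receive from NADPH-cytochrome P450 reductase at the endoplasmic reticulum. Plants use them to build lignin, cutin, suberin, the outer wall and coat of pollen, and hormones, and to make defence compounds. In flowers they are best known for the surface lipids of petals and for products that the tapetum, the nutritive cell layer of the anther, passes to pollen.

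The hybrid library held 27.1 times 1000000 reads, that of B. carinata 28.1 and that of B. napus 28.2 times 1000000. The floral homeotic genes AP3, PI and AG were present in every library, with a summed level of 667 RPKM in the hybrid, 771 for B. carinata and 482 for B. napus. The 4 tapetum markers, A9, AMS, MS1 and BHLH091, summed to 903 RPKM in the hybrid, 3855 in B. carinata and 759 in B. napus, and each of the 4 was highest in B. carinata. The 5 markers of late pollen, PPME1, VGD1, AHA6, PRF4 and ADF7, summed to 2.37 RPKM in the hybrid, 4.82 in B. carinata and 616 in B. napus, and each of the 5 was highest in B. napus. The libraries therefore differed in tapetum and pollen transcripts, and the part of this in any P450 difference given here was not tested.

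P450 transcripts made up a smaller share of the reads in the hybrid than in either parent. The members had 26535 reads in the hybrid, or 0.0979% of the library (Clopper-Pearson interval 0.0968 to 0.0991%). B. carinata had 35978 reads or 0.128% (0.127 to 0.129%), and B. napus had 39667 reads or 0.140% (0.139 to 0.142%). In RPM the hybrid stood at 0.766 times B. carinata (95% interval 0.754 to 0.778) and at 0.697 times B. napus (0.687 to 0.708). B. carinata stood at 0.910 times B. napus (0.897 to 0.923). The first of these ratios rested on 2 entries: without CYP98A8 and CYP86B1 the members had 808 RPM in the hybrid, 775 in B. carinata and 1164 in B. napus, so the hybrid was then at 1.04 times B. carinata. The ratio of the parents turned to 1.10 under both TMM and median-of-ratios scaling of the libraries.

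The level was concentrated in few entries. The 5 highest entries held 43.3% of the summed P450 RPKM in the hybrid, 54.0% in B. carinata and 48.4% in B. napus. CYP98A8 led in every library, with 13.6% in the hybrid, 20.1% in B. carinata and 17.1% in B. napus. Of the 69 entries, 41 reached 5 RPKM in at least 1 library, 23 had reads but stayed under it, and 5 had no read in any library (CYP71B12, CYP71B13, CYP71B25, CYP71B29 and CYP716B2), which allows up to 0.111 RPM in the hybrid, 0.107 in B. carinata and 0.106 in B. napus. By library, 32 entries reached 5 RPKM in the hybrid, 31 in B. carinata and 35 in B. napus.

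**Figure D1:**
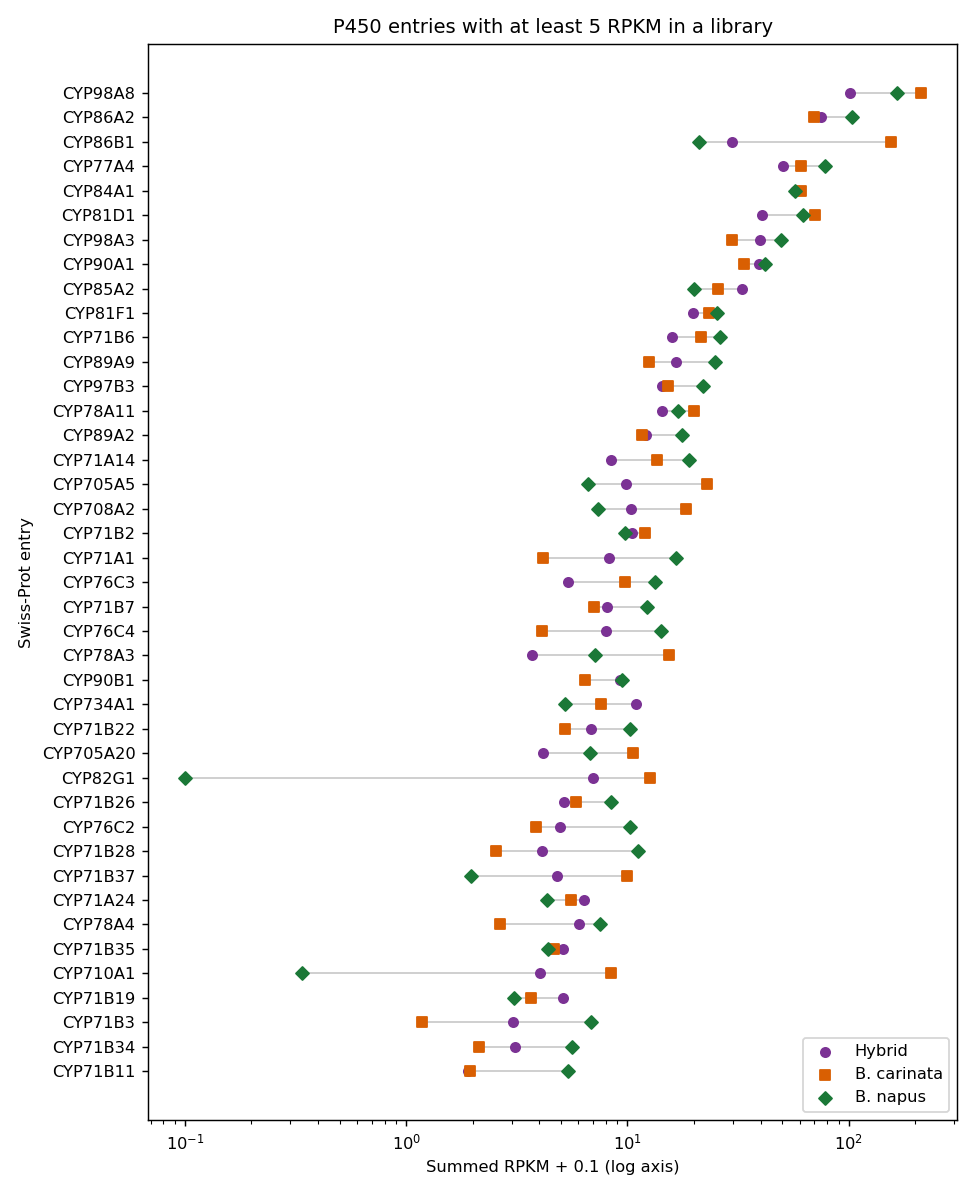
Summed RPKM plus 0.1 (log axis) of the 41 P450 entries with at least 5 RPKM in a library, 1 point per library (hybrid, B. carinata, B. napus), ordered by mean level. The grey line spans the libraries. CYP98A8 is highest at 101 RPKM in the hybrid, and CYP82G1 has no read in B. napus. The hybrid points of CYP84A1 and CYP71B11 lie under those of a parent.

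The families summarise this pattern. Family 98 summed to 141 RPKM in the hybrid, 241 in B. carinata and 214 in B. napus. Family 86 summed to 105 RPKM in the hybrid, 225 in B. carinata and 127 in B. napus, and family 71, with 33 entries the largest, to 112 in the hybrid, 119 in B. carinata and 159 in B. napus. These 3 families led in each library, and the other 20 families ranged up to 60.01 RPKM in the hybrid, 93.8 in B. carinata and 87.1 in B. napus, with family 81 at the top each time. Families CYP85, CYP734 and the low CYP72 stood above both parents in the hybrid, and family 85 had 34.8 RPKM in the hybrid against 27.1 in B. carinata and 22.4 in B. napus. In reads, the ratio of family 85 to B. carinata turned from 1.20 to 0.970 under median-of-ratios scaling.

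**Figure D2:**
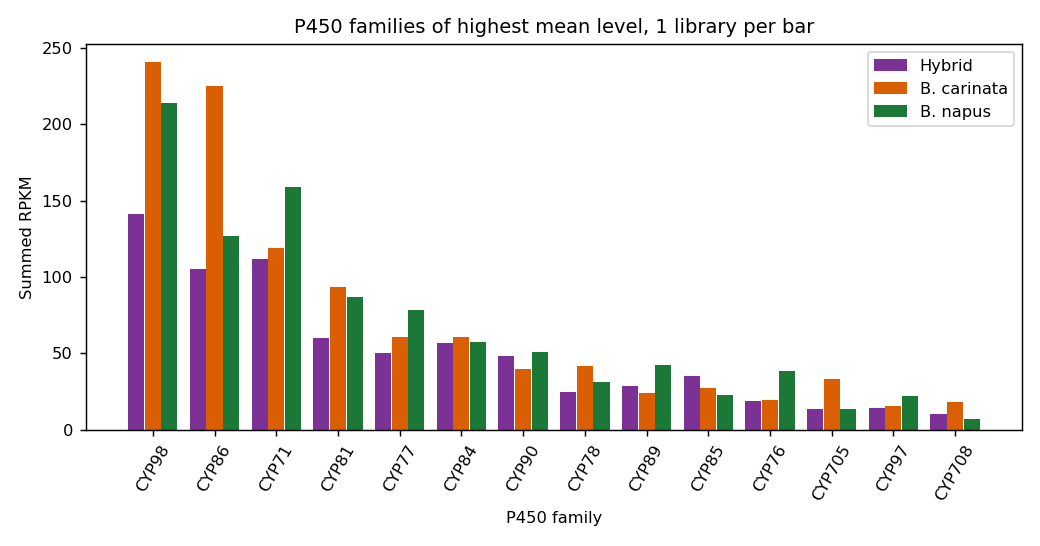
Summed RPKM of the 14 P450 families of highest mean level, as bars from 0, with the hybrid, B. carinata and B. napus from left to right and 1 library per bar. Family 98 is highest in each library, at 141 RPKM in the hybrid, and family 86 is high in B. carinata at 225 RPKM.

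The comparisons across entries used the log2 ratio after adding 1 RPKM to each level, which understates the differences of low entries. An entry counted as called when the libraries differed at least 2-fold and the higher of them had 5 RPKM or more, and the same rule was applied to all 10526 Swiss-Prot entries of the table as a background.

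In the hybrid against B. carinata, 5 of 36 measured entries were lower and none was higher, and the median log2 ratio was -0.13, against -0.08 over all Swiss-Prot entries. The 5 were CYP86B1, CYP78A3, CYP705A20, CYP705A5 and CYP98A8. Over all Swiss-Prot entries 8.44% were lower, 3.81% higher and 12.2% either by this rule. Under median-of-ratios scaling 12 of 36 entries were lower, and under TMM scaling 2 of 38 were higher. These scalings shifted the log2 ratios by -0.31 and 0.18, and the shares over all entries were taken in the deposited scaling only. In the hybrid against B. napus, 4 of 39 were lower, namely CYP71B28, CYP76C3, CYP71B11 and CYP71A14, and 1 was higher, CYP82G1. The median was -0.52, against 0.01 over all entries, where 8.07% were lower, 8.51% higher and 16.6% either. The share called did not stand out from this background, while the median of the P450s lay below that of all entries. Under TMM the medians were -0.049 for the P450s and 0.46 for all entries, no P450 entry was called lower and 4 were called higher. The share of all entries called was not taken under TMM.

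Against the mean of both parents, 2 of 37 measured entries were lower in the hybrid, CYP86B1 and CYP78A3, and none was higher. Over all Swiss-Prot entries 6.18% were lower, 0.717% higher and 6.9% either. Of the 37 entries 27 lay below the mean of the parents, or 72.97%, against 55.7% of all entries. The median log2 ratio was -0.27 for the P450s and -0.05 for all entries. It turned to 0.058 under TMM scaling, where that of all entries was 0.26.

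In B. carinata against B. napus, 7 of 39 measured entries were higher, where 18.3% of all Swiss-Prot entries were, and 8 were lower, where 12.8% were, with 31.1% of all entries either. Under median-of-ratios scaling 8 of 40 were higher and 5 lower, with no share over all entries taken in that scaling. Those higher in B. carinata were CYP82G1, CYP710A1, CYP86B1, CYP71B37, CYP705A5, CYP708A2 and CYP78A3. Those lower in B. carinata were CYP71B3, CYP71B28, CYP71A1, CYP76C4, CYP78A4, CYP76C2, CYP71B11 and CYP71B34. Of these 8, 7 belong to families 71 and 76, which held 16 of the 39 measured entries. The hybrid lay between the parents for 6 of the 7 and for 7 of the 8, the exceptions being CYP78A3 and CYP71B11. These entries were chosen for parents that differ, which favours a hybrid in between, and the matching share over all entries was not taken. CYP71B11 was nearly level with B. carinata, at 1.80 RPKM in the hybrid and 1.85 in B. carinata, with a read ratio of 0.901 (0.625 to 1.30).

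**Figure D3:**
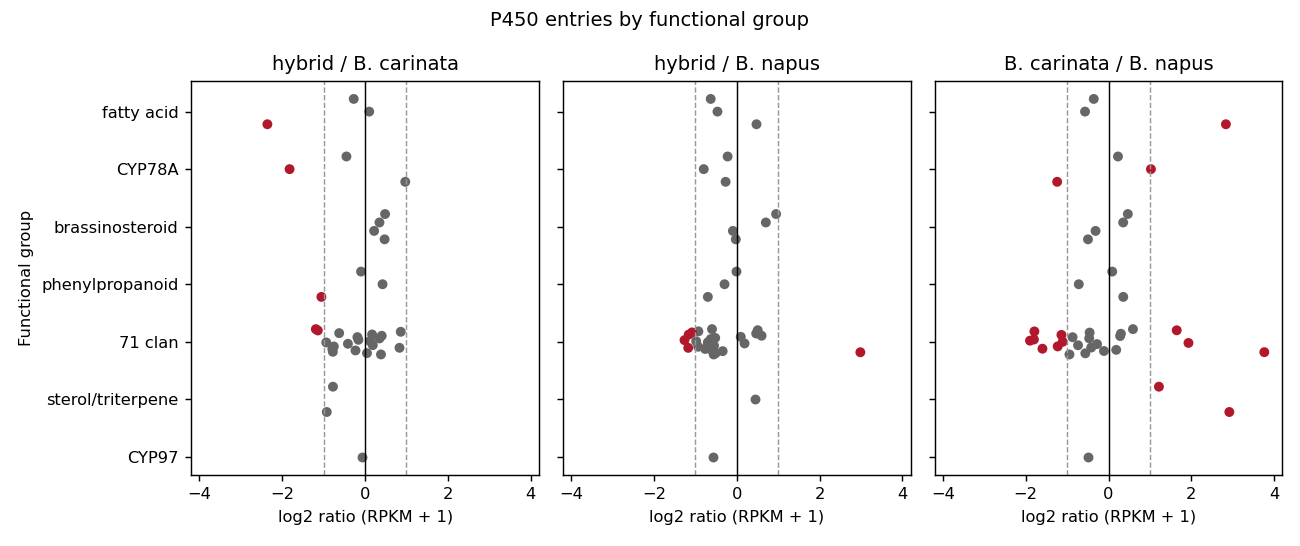
Log2 ratio after adding 1 RPKM of each measured P450 entry, by functional group, for the hybrid over B. carinata, the hybrid over B. napus and B. carinata over B. napus. Points past the dashed lines at 2-fold are red. For the hybrid over B. carinata 5 entries lie past the line on the low side and none on the high side.

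The phenylpropanoid hydroxylases, which add hydroxyl groups to the ring compounds that become lignin and pollen phenolics, were led by CYP98A8. In Arabidopsis this enzyme acts in the tapetum on spermidine conjugates of the pollen coat. CYP98A8 had 101 RPKM in the hybrid (4094 reads), 211 in B. carinata (10801 reads) and 165 in B. napus (6318 reads). The hybrid was lowest, at 0.394 times B. carinata and 0.675 times B. napus in RPM. The summed tapetum markers were highest in B. carinata and lowest in B. napus, and their part in the result was not tested.

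CYP98A8 was assembled as 3 sequences that differed between the libraries in different ways. The sequence of 1915 bases had 24.7 RPKM in the hybrid, 161 for B. carinata and 10.3 for B. napus. The sequence of 1243 bases had 42.1 RPKM in the hybrid, no read for B. carinata and 108 for B. napus. The sequence of 1498 bases had 34.4 RPKM in the hybrid, 49.8 for B. carinata and 46.5 for B. napus. The hybrid therefore held each parent's leading copy at a level below that parent, and held both.

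CYP98A3 hydroxylates coumaroyl esters on the way to lignin, and CYP84A1, ferulate 5-hydroxylase, leads to its syringyl units. CYP98A3 had 39.8 RPKM in the hybrid, 29.5 in B. carinata and 49.1 in B. napus. Its copies were again split by parent: the sequence of 2602 bases had 16.3 RPKM in the hybrid, 1.97 in B. carinata and 30.2 in B. napus, and that of 2425 bases 7.98 in the hybrid, 13.2 in B. carinata and 1.33 in B. napus. CYP84A1 was nearly level, with 56.9 RPKM in the hybrid, 60.9 in B. carinata and 57.2 in B. napus. In RPM CYP84A1 was instead at 1.27 times B. carinata and 0.714 times B. napus in the hybrid. Summed RPKM gives short fragments more weight than reads do, and several of its short sequences had reads in B. carinata and none in B. napus. The whole group summed to 198 RPKM in the hybrid, 302 in B. carinata and 271 in B. napus. In reads it was at 0.626 times B. carinata (0.610 to 0.643) and 0.717 times B. napus (0.697 to 0.737). Of its 3 measured entries 1 was called, CYP98A8 below B. carinata, where 8.44% of all Swiss-Prot entries were. A count out of 3 cannot be told from this share. Under TMM the ratio of the summed RPKM to B. napus was 1.003.

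**Figure D4:**
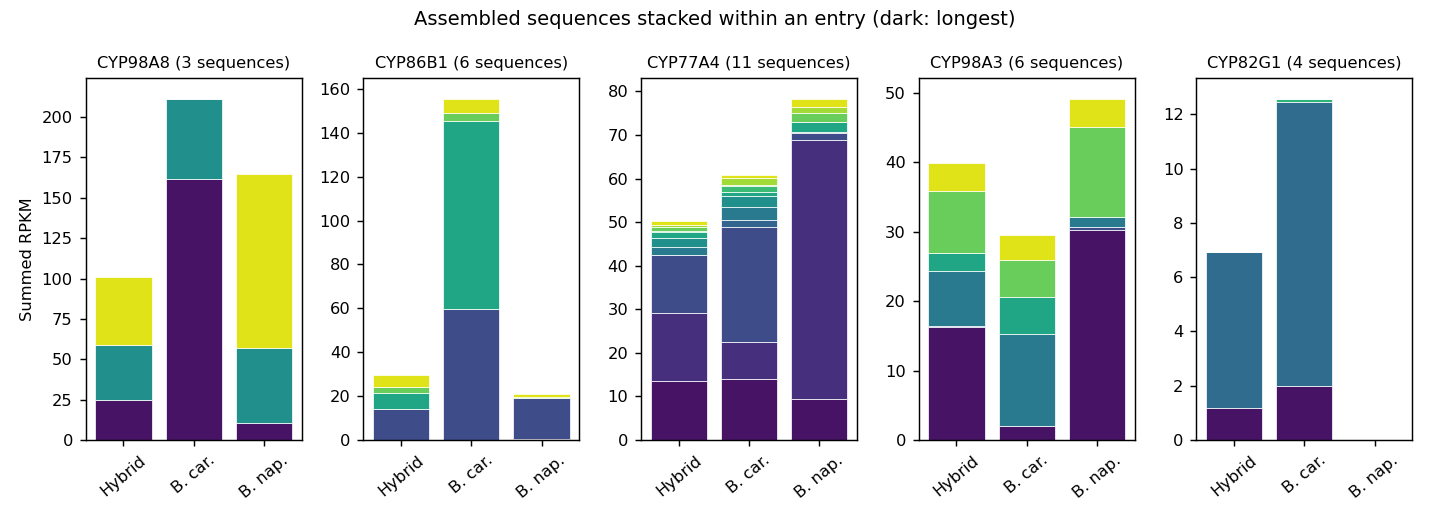
Summed RPKM of 5 P450 entries split into their assembled sequences, stacked from the longest (dark, at the bottom) to the shortest (light), with the hybrid, B. carinata and B. napus from left to right in each panel. Each panel has its own axis from 0. For CYP98A8 the longest sequence fills most of the B. carinata bar (161 RPKM) and the shortest most of the B. napus bar (108 RPKM), and the hybrid bar holds both.

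The fatty acid hydroxylases, which make the building blocks of cutin and suberin, summed to 156 RPKM in the hybrid, 286 in B. carinata and 208 in B. napus. CYP86A2, a cutin enzyme of Arabidopsis, had 74.7 RPKM in the hybrid, 69.6 for B. carinata and 104 for B. napus. The Nr hits separate its sequences further. Those named CYP86A4, an enzyme of petal cutin in Arabidopsis, had 37.9 RPKM in the hybrid, 28.4 in B. carinata and 75.4 in B. napus, which is 0.353 times B. napus in RPM for the hybrid. Those named CYP86A8, known from the lacerata mutant, had 32.4 RPKM in the hybrid, 35.7 for B. carinata and 24.4 for B. napus, the opposite order of the parents.

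CYP77A4, a fatty acid epoxidase in Arabidopsis, had 50.2 RPKM in the hybrid, 60.9 in B. carinata and 78.3 in B. napus, and the hybrid was lowest. Most of this came from 3 sequences that Nr names CYP77A6, the partner of CYP86A4 in petal cutin, with 42.4 RPKM in the hybrid, 48.9 for B. carinata and 70.5 for B. napus. The sequence of 2016 bases was the B. napus copy by level, with 15.6 RPKM in the hybrid, 8.46 for B. carinata and 59.6 for B. napus. The sequence of 1290 bases was high in B. carinata instead, with 13.3 RPKM in the hybrid, 26.5 in B. carinata and 1.65 in B. napus. In the hybrid both copies were present at close levels.

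CYP86B1, named for an enzyme of very-long-chain suberin acids, had the largest distance of the hybrid from B. carinata, with 29.5 RPKM in the hybrid (545 reads), 155 in B. carinata (3357 reads) and 20.9 in B. napus (471 reads). The read ratio of the hybrid to B. carinata was 0.169, and that of B. carinata to B. napus was 7.15. The name does not hold for most of this level: 3 of the 6 sequences, which Nr calls At1g13140, carried 21.5 RPKM in the hybrid, 146 for B. carinata and 18.7 for B. napus. The 2 sequences that Nr also calls CYP86B1 had 8.01 RPKM in the hybrid, 9.91 in B. carinata and 1.83 in B. napus. A further 26 sequences with this Swiss-Prot name failed the score, and they summed to 170 RPKM in the hybrid, 398 in B. carinata and 541 in B. napus. Among these, sequences called CYP86C4 had 33.2 RPKM in the hybrid, 150 in B. carinata and 281 in B. napus. With no score limit the log2 ratio of B. carinata to B. napus for this entry turned to -0.023, and with a limit of 0.8 that of the hybrid to the mean of the parents turned to 0.35. The tapetum markers were high in B. carinata as CYP86B1 was, and their part in the result was not tested. The remaining entries of the group, CYP86A1, CYP94A2 and CYP704C1, stayed under 5 RPKM in every library.

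In reads, the fatty acid group of the hybrid was at 0.696 times B. carinata (0.672 to 0.720) and 0.562 times B. napus (0.544 to 0.581). Of its 3 measured entries 1 was called, CYP86B1. It was lower in the hybrid than in B. carinata and than the mean of the parents, and higher in B. carinata than in B. napus. Over all Swiss-Prot entries 8.44%, 6.18% and 18.3% were called so, and a count out of 3 cannot be told from these shares. The parents' order depended on the measure, since B. carinata was at 1.38 times B. napus in summed RPKM and at 0.808 times in reads. The ratio of summed RPKM of the hybrid to B. napus, 0.752, turned to 1.03 under TMM.

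CYP78A enzymes promote the growth of organs and seeds through a signal that is not fully known. They summed to 24.9 RPKM in the hybrid, 41.9 in B. carinata and 31.2 in B. napus, and in reads to 0.587 times B. carinata (0.539 to 0.640) and 0.825 times B. napus (0.752 to 0.904), the second of which turned to 1.13 under TMM. The Swiss-Prot names here come from rice, soybean, pine and maize, and the Nr hits give the Arabidopsis names. Sequences named CYP78A7 in Nr, mostly under the rice entry CYP78A11, had 15.3 RPKM in the hybrid, 24.0 for B. carinata and 16.8 for B. napus.

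The soybean entry CYP78A3 was called below B. carinata and below the mean of the parents in the hybrid, with 3.60 RPKM in the hybrid, 15.3 in B. carinata and 7.01 in B. napus. It joined 2 sets of sequences with opposite patterns. Those named CYP78A9, which promotes seed size in Arabidopsis, had 2.56 RPKM in the hybrid, 13.7 in B. carinata and 0.90 in B. napus. In RPM the CYP78A9 set of the hybrid was at 0.184 times B. carinata and 2.11 times B. napus, so it lay between them. Those named CYP78A6 had 0.89 RPKM in the hybrid, 1.42 for B. carinata and 5.57 for B. napus. The pine entry CYP78A4 consisted almost wholly of 1 sequence named CYP78A5, the organ growth regulator KLUH, with 5.96 RPKM in the hybrid, 2.45 in B. carinata and 7.39 in B. napus.

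Brassinosteroid enzymes were the only group of the 7 whose summed reads in the hybrid exceeded both parents. The group summed to 99.0 RPKM in the hybrid, 77.4 in B. carinata and 82.6 in B. napus. In reads the hybrid was at 1.31 times B. carinata (1.24 to 1.38) and 1.19 times B. napus (1.13 to 1.26), and both ratios kept their side of 1 under TMM and under median-of-ratios scaling, where the first was 1.05. None of its 4 measured entries was called apart in any comparison. Over all Swiss-Prot entries 12.2% were called either way against B. carinata, 16.6% against B. napus, 6.9% against the mean of the parents and 31.1% between the parents. A count out of 4 cannot be told from these shares.

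Within this group the entries of the earlier steps lay near B. napus. CYP90A1, the C-3 oxidase CPD, had 39.1 RPKM in the hybrid, 33.4 in B. carinata and 41.8 in B. napus. CYP90B1, the C-22 hydroxylase DWF4, had 9.15 RPKM in the hybrid, 6.32 for B. carinata and 9.32 for B. napus. The last step and inactivation were highest in the hybrid: CYP85A2, which forms brassinolide in Arabidopsis, had 32.9 RPKM in the hybrid, 25.7 in B. carinata and 19.9 in B. napus.

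CYP734A1, known as BAS1, inactivates brassinosteroids. It was a single sequence with 10.9 RPKM in the hybrid (553 reads), 7.48 in B. carinata (396 reads) and 5.14 in B. napus (273 reads). Its read ratio was 1.45 to B. carinata and 2.11 to B. napus, and after adding 1 RPKM its log2 ratio to B. napus was 0.95, just under the call. A further 9 sequences under this Swiss-Prot name failed the score. They were instead highest in B. carinata, with 15.8 RPKM in the hybrid, 32.3 in B. carinata and 11.0 in B. napus. CYP85A1, CYP72C1 and the rice entry CYP724B1 had reads but stayed under 5 RPKM in every library.

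The group called 71 clan here holds entries listed under specialised and defence metabolism, whose members mostly make defence and scent compounds. It is not the whole clan, since families 77, 78, 84 and 98 were placed in other groups. It was the largest group with 45 entries, of which 25 reached 5 RPKM in a library. It summed to 240.3 RPKM in the hybrid, 302 in B. carinata and 340.3 in B. napus. In reads the hybrid was at 0.921 times B. carinata (0.893 to 0.9496), a ratio that turned to 1.05 under TMM, and at 0.670 times B. napus (0.651 to 0.690). Against B. carinata 2 of 20 measured entries were lower in the hybrid, against B. napus 4 of 24 were lower and 1 higher, and against the mean of the parents none of 22 was called. Over all Swiss-Prot entries 8.44% were lower than B. carinata, 8.07% lower and 8.51% higher than B. napus, and 6.9% apart from the mean of the parents. Between the parents, 3 of 23 were higher and 7 lower in B. carinata, where 18.3% and 12.8% of all entries were.

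CYP82G1 forms the volatile homoterpene TMTT in Arabidopsis. It had 6.91 RPKM in the hybrid (133 reads), 12.6 in B. carinata (249 reads) and no read in B. napus. With the count of 0 set to 3 reads, its RPM was 46.2-fold higher in the hybrid and 83.3-fold higher in B. carinata than in B. napus. The 95% counting intervals of the ratios to the count of 0 reach lower, to 37.1 for the hybrid and 67.2 for B. carinata. All 4 of its sequences were without reads in B. napus, and the hybrid was at 0.555 times B. carinata (0.446 to 0.688). The sequence of 631 bases carried most of it, with 5.73 RPKM in the hybrid and 10.5 in B. carinata.

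CYP705A5 and CYP708A2 act in Arabidopsis on thalianol, a triterpene made in roots. CYP705A5 had 9.73 RPKM in the hybrid, 22.7 in B. carinata and 6.56 in B. napus, and CYP708A2 had 10.2 in the hybrid, 18.2 in B. carinata and 7.27 in B. napus. Summed over their sequences, both entries exceeded B. napus by more than 2-fold in B. carinata, and the hybrid lay between. The related CYP705A20 had 4.06 RPKM in the hybrid, 10.5 in B. carinata and 6.66 in B. napus, yet in RPM the hybrid was at 1.36 times B. napus (0.981 to 1.88). CYP705A5 is a mixed entry of 14 sequences, none of which Nr names CYP705A5. Its 3 sequences named CYP705A2 had 5.97 RPKM in B. carinata and no read in the hybrid or in B. napus. CYP708A2 was mixed as well, and Nr names none of its sequences CYP708A2. Its sequence of 926 bases had 4.42 RPKM in the hybrid, 10.97 in B. carinata and no read in B. napus. The 5 sequences that Nr calls only a cytochrome P450 family protein had the opposite order of the parents. They had 3.08 RPKM in the hybrid, 0.75 in B. carinata and 6.21 in B. napus.

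Of 16 measured entries of families 71 and 76, 7 were called lower and 1 higher in B. carinata than in B. napus, and 8 were not called. Over all Swiss-Prot entries 12.8% were lower and 18.3% higher. The families were joined after the calls were seen, so this count restates the calls and is no separate result. CYP76C3, not called between the parents, an enzyme of linalool metabolism in Arabidopsis flowers, had 5.30 RPKM in the hybrid, 9.64 in B. carinata and 13.2 in B. napus, and the hybrid was below both. CYP76C4 had 7.92 RPKM in the hybrid, 4.01 in B. carinata and 14.1 in B. napus, and CYP76C2 4.85 in the hybrid, 3.77 for B. carinata and 10.2 for B. napus. The avocado entry CYP71A1 had 8.19 RPKM in the hybrid, 4.06 in B. carinata and 16.5 in B. napus.

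Among the CYP71B entries, CYP71B28 had 4.01 RPKM in the hybrid, 2.45 in B. carinata and 11.0 in B. napus, and the hybrid was at 0.333 times B. napus in RPM. CYP71B3 had 2.93 RPKM in the hybrid, 1.08 in B. carinata and 6.75 in B. napus, and CYP71B11 had 1.80 in the hybrid, 1.85 in B. carinata and 5.27 in B. napus. CYP71B37 went the other way, with 4.69 RPKM in the hybrid, 9.90 in B. carinata and 1.86 in B. napus. CYP71A14 was lowest in the hybrid, with 8.36 RPKM in the hybrid, 13.4 for B. carinata and 18.8 for B. napus.

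The most abundant entries of the group called 71 clan here differed by less than 2-fold in every comparison. CYP81D1 gathered 41 sequences that Nr divides among CYP81D4, CYP81D5, CYP81D7, CYP81D11, CYP81G1 and others. It had 40.3 RPKM in the hybrid, 70.5 in B. carinata and 61.9 in B. napus, and the hybrid was lowest. Some of its parts differed by more than 2-fold, in opposite ways. Those named CYP81G1 had 6.90 RPKM in the hybrid, 18.9 in B. carinata and 6.16 in B. napus. That named CYP81D7 had no read in the hybrid, 0.10 RPKM in B. carinata and 4.11 in B. napus. CYP81F1, of a subfamily that modifies indole glucosinolates in Arabidopsis, had 19.7 RPKM in the hybrid, 23.3 in B. carinata and 25.2 in B. napus. In RPM the hybrid was instead at 1.32 times B. carinata for CYP81F1. This entry also joined opposite parts. Its 15 sequences named CYP91A2 in Nr had 11.8 RPKM in the hybrid, 13.6 in B. carinata and 6.98 in B. napus. Its 2 sequences named CYP81F2 had 2.17 in the hybrid, 0.47 in B. carinata and 8.48 in B. napus. CYP71B6, which metabolises indole-3-acetonitrile in Arabidopsis, had 15.7 RPKM in the hybrid, 21.3 in B. carinata and 26.04 in B. napus. CYP89A9, which acts on chlorophyll breakdown products in Arabidopsis, had 16.6 RPKM in the hybrid, 12.4 in B. carinata and 24.9 in B. napus.

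In the sterol and triterpene group, CYP710A1 makes stigmasterol by desaturating the side chain of sitosterol. It had 3.93 RPKM in the hybrid (62 reads), 8.36 in B. carinata (118 reads) and 0.24 in B. napus (13 reads). The group as a whole, mainly this entry and CYP708A2, was at 0.587 times B. carinata (0.504 to 0.683) and 1.78 times B. napus (1.46 to 2.18) in reads for the hybrid. The only entry of family 97, CYP97B3, related to the carotenoid hydroxylases, had 14.2 RPKM in the hybrid, 15.2 in B. carinata and 21.7 in B. napus. In RPM CYP97B3 was at 1.39 times B. carinata in the hybrid, so its place relative to B. carinata depended on the measure.

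Taking all 41 entries with at least 5 RPKM in a library, the hybrid lay between the parents for 22, above both for 5 and below both for 14. Below both were 34.1% of the P450 entries and 22.1% of all Swiss-Prot entries, above both 12.2% and 19.4%, and between 53.7% and 58.5%. The 5 above both were CYP85A2, CYP734A1, CYP71A24, CYP71B35 and CYP71B19. In RPM CYP71B35 was instead at 0.783 times B. carinata in the hybrid (0.608 to 1.01). CYP71A24, at 1.09 (0.912 to 1.30), and CYP71B19, at 1.09 (0.755 to 1.57), could not be told from B. carinata by reads. For CYP85A2 and CYP734A1 the intervals of the read ratios to both parents lay above 1. The 14 below both included CYP98A8, CYP77A4, CYP81D1, CYP71B6, CYP76C3 and CYP78A3. They also included CYP84A1, CYP81F1 and CYP97B3, which in RPM were above B. carinata in the hybrid. CYP71B26, at 1.12 times B. carinata in RPM (0.873 to 1.44), and CYP705A20, at 1.36 times B. napus (0.981 to 1.88), were among the 14 as well. In summed RPM 11 of 40 entries were below both, or 27.5%, against 21.7% of all entries. None was 2-fold beyond both parents, where 0.235% of all entries were above and 1.23% below by that measure. The number depended on the processing: 4 of 33 were below both when each entry was represented by its highest sequence, 12.1% against 10.2% of all entries.

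The sequences themselves were sorted by parent. A sequence was assigned to 1 parent when it had at least 10 reads there and none in the other. By this rule 67 member sequences, or 17.4%, had reads of B. carinata only, as did 17.4% of all sequences, and 21, or 5.47%, of B. napus only, against 7.66% of all sequences. The hybrid had reads on 58 of the 67, 86.6%, against 93.3% of all B. carinata sequences, and on 20 of the 21, 95.2%, against 88.2% of all B. napus sequences. Several of these sequences are fragments or copies of 1 gene and are not independent, so the shares are given with no interval.

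Both parental sets had a lower summed RPM in the hybrid than in their own parent. The sets were chosen for reads in 1 parent and none in the other, which favours a lower level in the hybrid. Summed over the 67 sequences, the hybrid had 0.405 times the RPM of B. carinata, and over the 21 it had 0.413 times those of B. napus. The same ratios over all sequences were 0.464 and 0.428, so a lower level of such sequences in the hybrid was not particular to the P450s. The B. napus set was dominated by the CYP98A8 sequence of 1243 bases, which gave 1417 of its 1865 reads in the hybrid. Reads of near-identical copies can be assigned to either sequence, so a sequence without reads in 1 parent does not show that the gene is missing there.

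**Figure D5:**
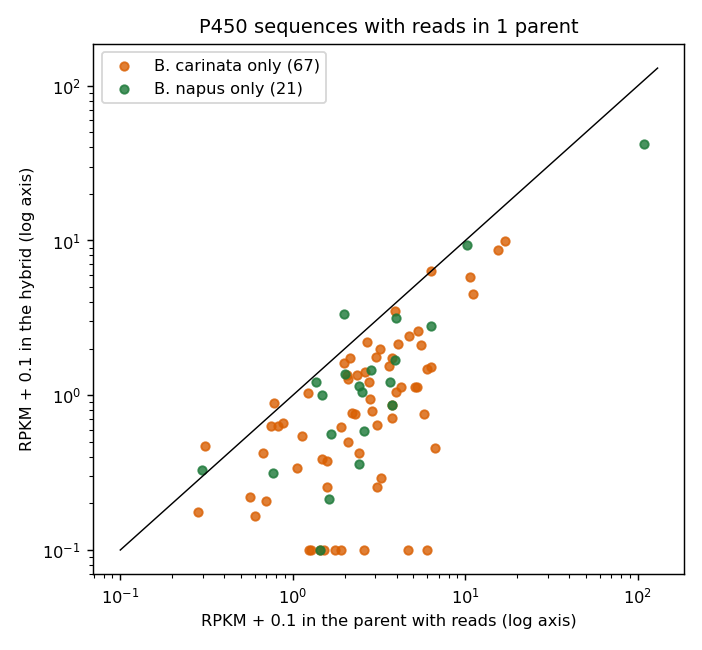
RPKM plus 0.1 in the hybrid against RPKM plus 0.1 in the parent with reads (both log axes) for the P450 sequences with at least 10 reads in 1 parent and none in the other, 67 of B. carinata only and 21 of B. napus only. The line marks equal levels. Most points lie below it, and the row at the bottom holds the sequences without a read in the hybrid.

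P450s that Swiss-Prot names by their reaction are outside the rule and give a setting for the members. Of 14 such enzymes listed, 11 were measured for the hybrid against B. carinata, with 1 higher (abscisic acid 8'-hydroxylase 4) and none lower, where 12.2% of all Swiss-Prot entries were called either way. For the hybrid against B. napus 12 were measured, with 2 lower (abscisic acid 8'-hydroxylase 3 and cytokinin hydroxylase) and none higher, where 16.6% were called. None of 12 was called against the mean of the parents, where 6.9% were. In B. carinata against B. napus 2 of 12 were lower (abscisic acid 8'-hydroxylase 4 and cytokinin hydroxylase) and none higher, where 31.1% were called. Trans-cinnamate 4-monooxygenase, the first P450 of the phenylpropanoid pathway, had 88.4 RPKM in the hybrid, 139 in B. carinata and 111 in B. napus, so the hybrid was lowest here as for CYP98A8. Sterol 14-demethylase, an early enzyme of sterol synthesis, had 123 RPKM in the hybrid, 105 for B. carinata and 118 for B. napus.

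The electron donors of the P450s differed between their 2 forms. NADPH-cytochrome P450 reductase 1 had 40.2 RPKM in the hybrid, 40.1 in B. carinata and 34.3 in B. napus. Reductase 2 had 23.2 RPKM in the hybrid, 48.3 in B. carinata and 24.3 in B. napus, and in reads the hybrid was at 0.498 times B. carinata (0.468 to 0.531) and 1.03 times B. napus (0.957 to 1.11). Reductase 2 was highest in B. carinata, as the tapetum markers were, and their part in it was not tested.

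The 3 sequences nearest the score limit on each side were low. Just inside were sequences of CYP724B1 at 0.603 with no read in any library, of CYP78A3 at 0.610 with 0.16 RPKM in the hybrid, 0.075 in B. carinata and 0.39 in B. napus, and of CYP81D1 at 0.615 with 1.62 RPKM in the hybrid, 0.60 in B. carinata and 2.50 in B. napus. Just outside were sequences of CYP81D1 at 0.599 with 0.33 RPKM in the hybrid, 3.97 in B. carinata and 0.079 in B. napus, of CYP76C2 at 0.592 with at most 0.31 RPKM, and of CYP734A1 at 0.591 with 1.83 RPKM in the hybrid, none for B. carinata and 4.44 for B. napus. A little further below the limit, with score ratios of 0.562 to 0.583, were the sequences called CYP86C4, whose levels in both parents are among the highest of any P450 here. The 105 sequences under the limit summed to 382 RPKM in the hybrid, 720 in B. carinata and 754 in B. napus, compared with 747, 1051 and 962 for the members in the hybrid, B. carinata and B. napus.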

How the data were processed

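The deposited table gives, per the file headers, raw read counts and RPKM values of each assembled sequence in 3 libraries, together with its length and its top-scoring matches in Nr, Nt and Swiss-Prot. RPKM recomputed from the deposited counts, length and library total matched 100% of the deposited values within 0.0005. The labels' protocols name Trizol extraction and a DNase treatment of the RNA. The programs that assembled, aligned and counted the reads are not named in the labels or file headers. The hit scores were used as deposited.

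RPKM was summed per Swiss-Prot entry, and 1 RPKM was added before taking log2 ratios. An entry was measured at 5 RPKM in the higher library and called at 2-fold. Medians were set beside those of 10526 Swiss-Prot entries under the same score limit of 0.6. With 1 library per group no test was made. Read ratios have exact conditional binomial intervals and shares Clopper-Pearson intervals (95%); reads are not independent molecules, so these cover counting error only. Bounds replace a count of 0 by 3 reads in that library.

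The entries named were the 12 of highest mean RPKM, the 5 highest and 5 lowest ratios of each comparison, a fixed set of 34 P450s of which 16 were member entries, and 14 enzymes named by reaction with both reductases. Further entries named as called apart, as above or below both parents, as low or without reads, and sequences named by Nr hit, were chosen after their values were seen. Members, groups and lists were chosen with earlier results of these data known. Of the 384 members, Nr gave a P450 number for 279: the same P450 for 150, another of the family for 126 and another family for 3. Alkane hydroxylase MAH1 and the green-cell marker LHCB3 had no match. Python 3.11.15, pandas 2.3.3, SciPy 1.17.1, R 4.3.3 and edgeR 4.0.16 (TMM factors only) were used.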

Additional observations from a re-analysis of the deposited data

How the results depend on the processing

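No paired analysis was possible because each group had 1 library. Alternatives for the summed reads and for the place of the hybrid were chosen after seeing the data. Shares of all Swiss-Prot entries called were taken in the main setting only, so the counts called under alternatives have no such share beside them. The cause was not tested for any of the changes that follow, apart from those made by testing fewer entries. Relative to RPKM as deposited, TMM shifted log2 ratios by 0.18 for the hybrid over B. carinata, 0.46 for the hybrid over B. napus and 0.28 for B. carinata over B. napus, and median-of-ratios factors by -0.31, -0.03 and 0.28.

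For the hybrid over B. carinata, entries higher numbered 0 and became 2 under TMM, 1 with 0.1 RPKM added, 4 at a floor of 1 RPKM, 4 with no floor, 1 in summed RPM, 3 by highest sequence and 1 for sequences of at least 500 bases. Entries lower numbered 5 and became 12 under median of ratios, 3 with 5 RPKM added, 3 at a score ratio of 0.8, 9 with no score ratio, 2 in reads over length and 3 for sequences of at least 500 bases. For the hybrid over B. napus, entries higher numbered 1 and became 4 under TMM, at a floor of 1 RPKM, with no floor and by highest sequence, 2 with 0.1 RPKM added, at score ratio 0.8, with no score ratio and at 500 bases, and 0 in reads over length, where only 13 entries were measured. Entries lower numbered 4 and became 0 under TMM and with 5 RPKM added, 7 with 0.1 RPKM added and by highest sequence, and 1 in reads over length. The median of -0.52 became -0.049 under TMM, where that of all entries was 0.46, and -0.71 by highest sequence.

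Against the mean of the parents, entries lower numbered 2 and became 6 under median of ratios, 4 with 0.1 RPKM added and in RPM, 1 with 5 RPKM added, at score ratio 0.8 and in reads over length, and 5 by highest sequence. The median of -0.27 became 0.058 under TMM and -0.45 under median of ratios. For B. carinata over B. napus, entries higher numbered 7 and became 11 at a floor of 1 RPKM and with no floor, 12 with no score ratio and 2 in reads over length. Entries lower numbered 8 and became 5 under TMM, median of ratios and no score ratio, 3 with 5 RPKM added, 13 at a floor of 1 RPKM and with no floor, 2 in reads over length and 15 by highest sequence. The median of -0.36 became -0.60 in RPM, -0.68 in reads over length and -0.78 by highest sequence.

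The summed read ratio of the hybrid to B. carinata was 0.870 under TMM, 0.618 under median of ratios, 0.840 at score ratio 0.8, 0.721 with no score ratio and 1.04 without CYP98A8 and CYP86B1. That of the hybrid to B. napus was 0.958 under TMM, 0.682 under median of ratios, 0.666 at score ratio 0.8, 0.663 with no score ratio and 0.680 at 500 bases. That of B. carinata to B. napus was 1.10 under TMM and under median of ratios, 0.793 at score ratio 0.8, 0.874 at 500 bases and 0.666 without CYP98A8 and CYP86B1. Entries below both parents numbered 14 and became 5 in reads over length, 4 by highest sequence and 9 at 500 bases. These were 33.3%, 12.1% and 23.7% of the entries, against 19.4%, 10.2% and 20.9% of all Swiss-Prot entries. Entries above both numbered 5 and became 10 under TMM and with no floor, and 2 under median of ratios and by highest sequence. They became 8 at a floor of 1 RPKM and 1 in reads over length. In each of these settings the share above both was under that of all entries. Under TMM it was 25%, against 44.9%, and 25% were below both, against 8.14%. Under median of ratios 5% were above both, against 8.14%, and 45% below, against 33.6%.

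Of 1372 values of named entries under alternatives, 1260 kept their call or their lack of one, 67 gained a call and 38 lost one. Another 5 values, uncalled in the main setting, passed 2-fold on the opposite side, and 2 called values changed sign. Changes of sign of uncalled values within 2-fold were not counted. The 2 called values that changed sign are both of CYP86B1. Its log2 ratio of B. carinata to B. napus was -0.023 with no score ratio, and that of the hybrid to the mean of the parents was 0.35 at score ratio 0.8.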
